A study of Mus musculus with 12 samples.

Results

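The genes described here are 38 genes of the unfolded protein response and of protein folding in the endoplasmic reticulum (ER), read across Puf60 knockdown and Puf60 induction in N2A cells, a mouse neuroblastoma line. They were picked for their known roles, with earlier results of these data known, and were found by gene symbol in a deposited expression table of 52661 genes and in a deposited splicing table. They fall into 6 sensors and transcription factors, 21 chaperones, folding enzymes and translocation genes, and 11 genes of ER-associated degradation. All 38 were in the expression table, 37 had exon-exon junction reads (Sec61b had none in the table), and 36 passed the filter of a mean of at least 20 junction reads, among 10363 genes tested. Derl3, with a mean of 3.08 junction reads, did not pass it.

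A pair of stable lines was used, each carrying a doxycycline-inducible, siRNA-resistant, Flag-tagged cDNA of the splicing factor Puf60 put in by Flp recombination: the pEx5 line has the cDNA with exon 5 and the mEx5 line the cDNA without it. In each line there were knockdown cells (Puf60 siRNA at 15 nM, no doxycycline), induction cells (the same siRNA, then doxycycline at 2 µg/ml for the last 24 h) and control cells (non-targeting siRNA at 15 nM, no doxycycline), all collected 48 h after transfection. The 6 groups held 2 libraries each, lettered A and B. Groups of 2 libraries can fail to overlap without a change, and the share of all genes for which they did so was not counted. The labels do not say whether A and B came from separate cultures, so p-values measure the spread between these libraries, which may be technical. Cells with the non-targeting siRNA and doxycycline were not among the groups, so the drug and the cDNA cannot be told apart in any induction comparison. The description field of the doxycycline libraries names them as not induced, and the treatment field, which states the drug, was followed.

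Proteins that enter the ER are folded by chaperones such as BiP (Hspa5) and by disulfide isomerases, and those that fail are carried back to the cytosol for degradation by the proteasome. When unfolded proteins build up, the membrane sensors IRE1 (Ern1), PERK (Eif2ak3) and ATF6 are activated: IRE1 cuts an intron out of Xbp1 mRNA, PERK slows translation, and ATF6 moves to the Golgi, where the site-1 protease (Mbtps1) and then the site-2 protease release its transcription factor part. XBP1 and the ATF6 fragment raise transcription of chaperones and degradation genes, many of them through ER stress response elements in their promoters. PUF60 binds pyrimidine-rich tracts before 3′ splice sites.

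The libraries held 22908930 to 41494994 exon-exon junction reads. Puf60 averaged 60.5 ± 4.23, 616 ± 9.19 and 305 ± 17.4 junction reads per 1000000 (CPM; SD, n = 2) in pEx5 knockdown, induction and control libraries, and 72.4 ± 2.36, 591 ± 31.7 and 299 ± 1.44 CPM in the mEx5 ones. Of 9 neuroblastoma and sympathetic neuron markers, 7 reached 1 RPKM in all 6 groups. None of 3 astrocyte, 3 microglia, 2 endothelial and 4 fibroblast markers did so, and their highest value in any group was 3.17 RPKM (Pdgfra). Some of these low sums moved with knockdown. The astrocyte markers summed to 2.98, 1.5 and 1.29 RPKM in pEx5 knockdown, induction and control cells and to 2.38, 1.06 and 0.56 RPKM in mEx5 ones, with Aldh1l1 at 0 in every group and Aqp4 at 0.01 or less. The fibroblast sums were 0.88, 0.44 and 0.42 RPKM in pEx5 and 3.83, 1.77 and 1.42 RPKM in mEx5. Endothelial sums were 0.68 and 1.31 RPKM in pEx5 and mEx5 knockdown against 0.35 and 0.96 in control, and microglial sums 0.66 and 0.39 against 0.75 and 0.78. The neuroblastoma and neuron markers summed to 908, 886 and 993 RPKM in pEx5 knockdown, induction and control cells and to 835, 784 and 943 RPKM in mEx5 ones. The part of these shifts in the results was not tested.

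The 38 genes covered a wide range of expression. The level of a gene is given as RPKM, reads per kilobase of transcript and 1000000 reads, of which the authors deposited 1 value per group, so no error can be put on it. The chaperones stood highest: Hsp90b1, the ER chaperone GRP94, had 731.16, 648.85 and 672.75 RPKM in pEx5 knockdown, induction and control cells, and 609.45, 482.82 and 549.64 RPKM in mEx5 ones. Calr, Canx and Hspa5 followed, and 11 of the 21 folding and translocation genes had a median over groups of at least 100 RPKM. None of the sensors and none of the degradation genes reached 100. Herpud1, which ties ubiquitin ligases to the retrotranslocation machinery, stood highest in degradation at 56.13 to 81.82 RPKM. Among sensors Xbp1 was highest at 58.55 to 71.08 RPKM, and Ern1 was lowest at 4.57 to 6.15 RPKM. Wfs1, a membrane protein of the ER, lay between 1.92 and 2.65 RPKM. Derl3 lay between 0.04 and 0.21 RPKM.

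**Figure D1:**
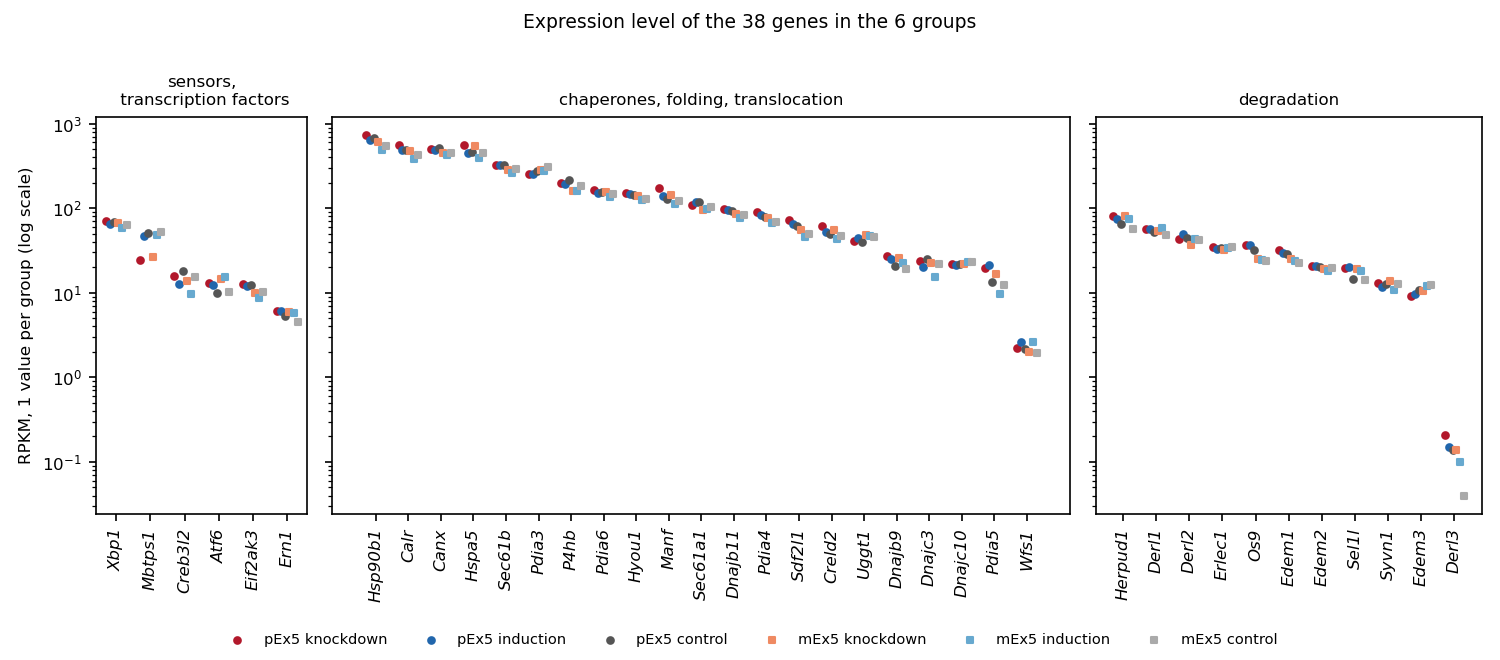
RPKM of the 38 genes (log axis, 1 value per group deposited by the authors) by role, with 6 points per gene for the 6 groups. The folding genes reach 731.16 RPKM, and Mbtps1 is the sensor whose knockdown points (24.77 and 26.67 RPKM) stand apart from its other groups.

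Knockdown against control compared cells given the Puf60 siRNA with cells given the non-targeting one. Loss of Puf60 and other effects of that siRNA cannot be told apart in this comparison. Most of the chaperones and degradation genes were modestly higher in knockdown cells, while Mbtps1, the protease gene of the ATF6 branch, fell to 0.423 of its control level. Over both lines together, 22 of the 36 tested genes rose, 4 fell and 10 did not pass the limma test (adjusted p under 0.05, Benjamini-Hochberg over all 10363 genes). Knockdown moved much of the transcriptome, and 26.5% of all genes tested were called higher and 25.3% lower. The median log2 change was 0.18 over the 36 genes and 0.01 over all genes tested. By role, 2 sensors rose and 1 fell of 6, 14 folding and translocation genes rose and 2 fell of 20, and 6 degradation genes rose and 1 fell of 10. In the single lines, 20 rose and 2 fell in pEx5 (19.5% of all genes were called higher and 19.5% lower) and 19 rose and 2 fell in mEx5 (17.6% and 18.3%). The knockdown effect of the lines differed for 0 of 36 genes by limma, also with voom weights, and for 2 at an unadjusted p under 0.05 (0.0% of all genes were called higher and 0.0289% lower). The authors' deposited table called 16 of the genes higher and 5 lower in pEx5 (15.2% and 17.5% of its genes) and 15 higher and 5 lower in mEx5 (14.0% and 16.8%). In bulk RNA, fewer cells with an RNA and less RNA per cell cannot be told apart.

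**Figure D2:**
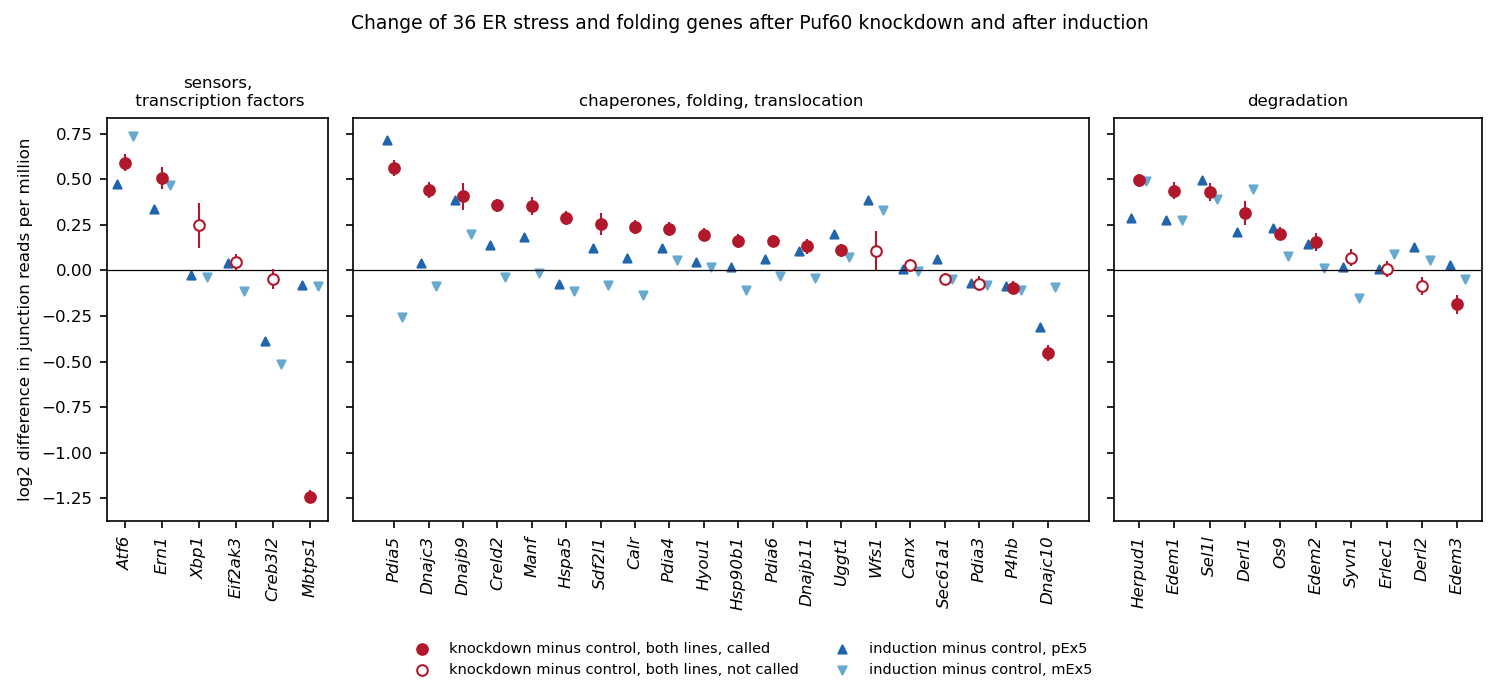
Log2 difference in junction CPM for the 36 tested genes by role. Circles with bars are knockdown minus control over both lines with the SE (filled when called, open when not), and triangles are induction minus control in each line. Most filled circles lie between 0.11 and 0.59, with Mbtps1 at -1.24. The triangles of Atf6, Ern1, Herpud1 and Sel1l lie between 0.29 and 0.74, and those of Mbtps1, Hspa5 and Dnajc3 between -0.11 and 0.04.

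Mbtps1 (ENSMUSG00000031835.16, GRCm38 chr8:119508156-119558735, minus strand) encodes the site-1 protease, a subtilisin-like serine protease of the Golgi that cuts ATF6 and the SREBP factors. It had 164 and 156 CPM in pEx5 knockdown, 365 and 361 in pEx5 induction and 382 and 385 in pEx5 control libraries. The mEx5 libraries had 172 and 170 CPM in knockdown, 384 and 367 in induction and 401 and 396 in control. All 4 knockdown libraries lay far below all 8 others, and the induction libraries came back to just under the controls. On the log2 scale Mbtps1 fell by 1.24 ± 0.034 (SE; 12 libraries, limma adjusted p = 1.16e-15) on knockdown. Induction against knockdown raised it by 1.18 ± 0.049 in the pEx5 line and by 1.13 ± 0.049 in the mEx5 line (adjusted p = 3.77e-12 and 5.67e-12 by limma). Against control, the induced cells differed by -0.08 ± 0.049 and -0.09 ± 0.049 (adjusted p = 0.235 and 0.224), which the test did not call. In the authors' deposited table Mbtps1 had 24.77, 46.97 and 50.69 RPKM in pEx5 knockdown, induction and control cells, and 26.67, 47.72 and 52.7 RPKM in mEx5 ones.

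Splicing of Mbtps1 changed in the same cells. A coding exon of 103 nt was included in 51.3% and 61.5% of reads in pEx5 knockdown libraries, 96.1% and 93.6% in pEx5 induction and 97.8% and 98.0% in pEx5 control. In the mEx5 line the values were 60.8% and 56.4% in knockdown, 97.4% and 95.3% in induction and 98.5% and 98.4% in control. Inclusion was thus low in every knockdown library and above 93% in every other one. The change was -40.7 points on knockdown and 38.1 points on induction over both lines (limma on the logit of inclusion reads, adjusted p = 0.000216 and 0.00193). The next exon, of 152 nt, changed by -21.3 points (adjusted p = 0.000194) and an exon of 258 nt nearer the 5′ end by -13.8 points (adjusted p = 0.00605). The binomial 95% interval (Clopper-Pearson) of the 103-nt exon was 47.3 to 55.4% in pEx5 knockdown A and 97.1 to 98.4% in pEx5 control A, which covers counting error only.

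These exons were matched to GENCODE M21 by the lengths of the exon and of both introns beside it, because the coordinates of the splicing table are of an assembly not stated. The 103-nt exon is exon 9 of 23 (GRCm38 chr8:119535275-119535377) and the 152-nt exon is exon 10 (chr8:119533321-119533472), both wholly coding. They are shown because their loss bears on the reading frame, 5′ to 3′ on the sense strand, with the exon in capitals and 20 bases of each neighbouring exon in lower case.
Mbtps1 exon 9: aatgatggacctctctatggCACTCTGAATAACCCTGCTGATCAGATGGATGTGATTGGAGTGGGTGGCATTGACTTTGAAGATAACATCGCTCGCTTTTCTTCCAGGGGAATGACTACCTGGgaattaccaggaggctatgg
Mbtps1 exon 10: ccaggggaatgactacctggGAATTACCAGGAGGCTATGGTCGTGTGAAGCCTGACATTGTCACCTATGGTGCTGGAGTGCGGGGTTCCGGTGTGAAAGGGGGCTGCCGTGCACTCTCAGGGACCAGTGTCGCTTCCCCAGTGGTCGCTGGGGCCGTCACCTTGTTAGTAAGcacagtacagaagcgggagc
Joining exon 8 directly to exon 10 leaves out 103 nt, which is not a multiple of 3, and the new frame meets a stop codon (capitals) at the end of the first 28 bases of exon 10.
Mbtps1 exon 8 joined to exon 10: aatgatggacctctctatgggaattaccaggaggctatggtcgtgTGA
That reading frame holds 352 codons before the stop, against 1052 in the full transcript, and the stop lies 1800 nt before the last exon-exon junction. Loss of exon 10 alone also shifts the frame (427 codons before the stop), whereas loss of exons 9 and 10 together, 255 nt, keeps it (967 codons), as does loss of the 258-nt exon (966 codons). These are readings of annotated sequence, and no protein was measured.

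Reads were lower along the whole Mbtps1 transcript. Of its 22 exon-exon junctions, 22 were lower in knockdown than in control in both lines. The 5 junctions that touch the 3 called exons had log2 ratios of knockdown to control of -2.22 to -1.43 (pEx5) and -2.04 to -1.07 (mEx5). The 17 junctions elsewhere had ratios of -1.36 to -0.93 (pEx5) and -1.54 to -0.95 (mEx5). Junctions away from the called exons were thus also lower, and in induction cells the ratios of these 17 lay between -0.29 and 0.07. An exon of 486 nt at the 5′ end moved -9.3 points and an alternative 3′ site of 27 nt moved -7.94 points. Both passed the adjusted threshold (0.00685 and 0.0203) and missed the minimum of 10 points; without mEx5 knockdown A the 486-nt exon moved -10.2 points and was called (adjusted p = 0.018).

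**Figure D3:**
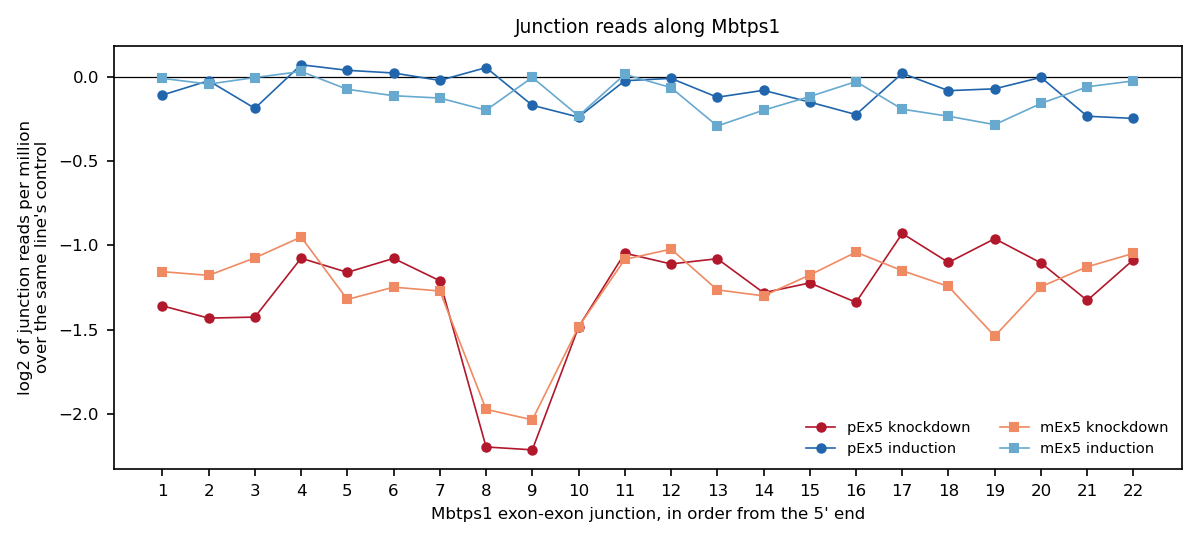
Log2 ratio of junction CPM to the control of the same line (vertical axis) at the 22 junctions of Mbtps1 in order from the 5′ end (horizontal axis), for knockdown and induction in each line. All knockdown points are at or below -0.93, lowest at the junctions on either side of the 103-nt exon, while all induction points lie between -0.29 and 0.07.

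Atf6, the target of the protease, rose in knockdown cells and was still above control in induction cells. It had 80.9 and 78.3 CPM in pEx5 knockdown, 73.5 and 78.4 in pEx5 induction and 52.5 and 56.8 in pEx5 control libraries. In mEx5 it had 90.5 and 89.2 CPM in knockdown, 92.0 and 100.0 in induction and 55.8 and 59.6 in control. Knockdown and induction libraries both lay above every control of their line. Atf6 rose by 0.59 ± 0.047 on the log2 scale on knockdown (limma adjusted p = 3.13e-09), with 15 of 15 junctions higher in both lines. After induction it was still 0.48 ± 0.066 above control in pEx5 and 0.74 ± 0.066 above it in mEx5 (adjusted p = 2.52e-05 and 1.74e-07 by limma). The difference in induction effect between the lines was -0.16 ± 0.094 and did not pass (adjusted p = 0.508).

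Ern1, the IRE1 kinase and endonuclease, was also above control in both. It had 33.6 and 32.9 CPM in pEx5 knockdown, 30.9 and 30.7 in induction and 24.9 and 23.8 in control libraries. The mEx5 values were 30.7 and 30.5 CPM in knockdown, 26.5 and 30.9 in induction and 21.0 and 20.3 in control, with no overlap between control and the other groups. The knockdown rise was 0.51 ± 0.059 (limma adjusted p = 6.14e-07), and induced cells stood 0.34 ± 0.083 and 0.47 ± 0.083 above control in pEx5 and mEx5 (adjusted p = 0.00463 and 0.00049). Eif2ak3, the kinase PERK, did not pass, with 84.8 and 81.2 CPM in pEx5 knockdown against 81.1 and 77.0 in pEx5 control, and 66.7 and 67.3 CPM in mEx5 knockdown against 68.3 and 63.8 in mEx5 control (0.05 ± 0.043, limma adjusted p = 0.395).

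Creb3l2, an ER-anchored transcription factor related to ATF6 that is also released by site-1 and site-2 proteases, fell on induction and did not pass on knockdown. Its pEx5 values were 57.1 and 54.1 CPM in knockdown, 44.2 and 43.0 in induction and 60.1 and 54.3 in control. Its mEx5 values were 55.6 and 48.5 CPM in knockdown, 38.1 and 37.5 in induction and 52.2 and 55.8 in control. The induction libraries lay below all others, while knockdown and control overlapped. Against control it fell by 0.39 ± 0.076 on the log2 scale in pEx5 and by 0.51 ± 0.076 in mEx5 on induction (adjusted p = 0.000772 and 8.16e-05 by limma), and knockdown gave -0.05 ± 0.054 (adjusted p = 0.485). The authors' deposited table calls Creb3l2 lower on knockdown as well, with log2 fold changes of -0.19 in pEx5 and -0.14 in mEx5 (FDR 0.00269 and 0.0367).

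Xbp1 did not pass the test. It had 40.7 and 43.7 CPM in pEx5 knockdown against 42.8 and 35.1 in pEx5 control, and 67.6 and 38.7 CPM in mEx5 knockdown against 46.6 and 33.5 in mEx5 control. The groups overlapped, and the duplicates of mEx5 knockdown were far apart. That gap sat in the first 2 of its 4 introns, where mEx5 knockdown A held 358 and 1040 junction reads and B held 106 and 348. A higher first junction in mEx5 knockdown A was not particular to Xbp1. Dnajc3 had 5.22 against 2.87 CPM there (A against B) and Creb3l2 5.6 against 2.94, but Canx had 89.3 against 89.5 and Derl2 14.1 against 18.1. How far this moved gene totals was not tested. The change was 0.25 ± 0.123 on the log2 scale (limma adjusted p = 0.101); it was 0.45 without mEx5 knockdown B (adjusted p = 0.00033) and 0.365 without mEx5 control A (adjusted p = 0.0241), both called, and its lowest value with a library left out was 0.04. In the authors' deposited table Xbp1 had 71.08 against 68.84 RPKM in pEx5 and 66.67 against 62.57 RPKM in mEx5, knockdown against control. The IRE1-spliced form was not measured here: the table has a 43-nt exon beside a gap of 26 nt, the length of the intron that IRE1 removes, but its inclusion of 97.37 to 99.56% does not separate the 2 forms.

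**Figure D4:**
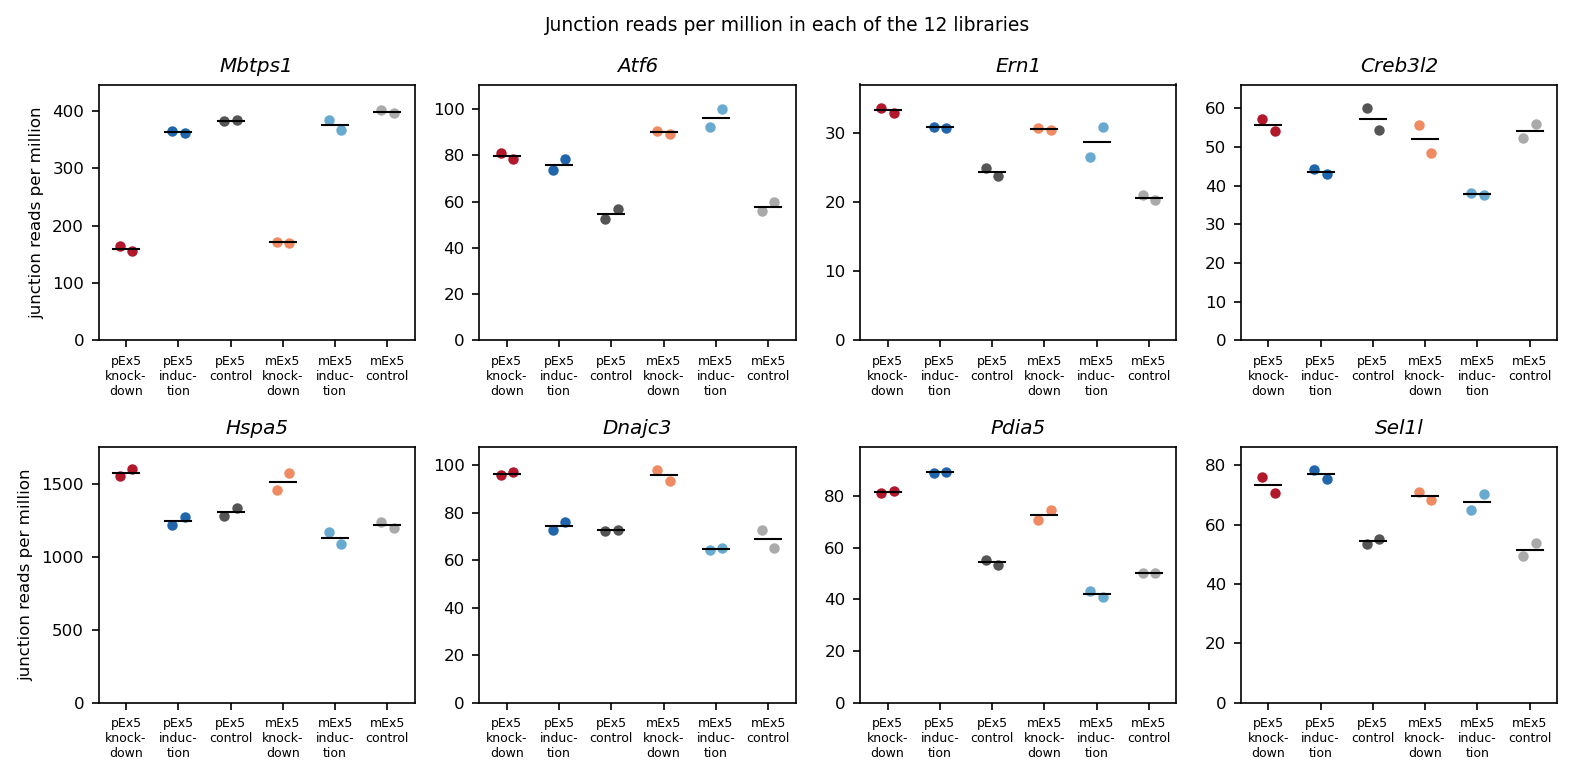
Junction CPM in each of the 12 libraries (points) with the group mean (bar) for 8 genes, vertical axes from 0. Mbtps1 is low in knockdown alone, Hspa5 and Dnajc3 are high in knockdown alone, Atf6, Ern1 and Sel1l are high in knockdown and induction, Creb3l2 is low in induction, and Pdia5 splits the induced lines.

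The chaperones mostly rose on knockdown by small amounts, and several fell again on induction. Hspa5, which encodes BiP, had 1555 and 1602 CPM in pEx5 knockdown, 1219 and 1276 in induction and 1285 and 1339.8 in control libraries. The mEx5 line gave 1459 and 1574 CPM in knockdown, 1173 and 1088 in induction and 1241 and 1202.5 in control. Every knockdown library was above every other library, and induction libraries lay below the controls in both lines. Hspa5 rose by 0.29 ± 0.038 on the log2 scale on knockdown, 1.22-fold (limma adjusted p = 3.02e-06). Induction against knockdown moved it by a log2 change of -0.34 ± 0.054 in pEx5 and by -0.42 ± 0.054 in mEx5 (adjusted p = 0.000135 and 8.67e-06 by limma). The difference from control after induction, -0.07 and -0.11, did not pass.

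Dnajc3 (p58IPK), a BiP cochaperone that also inhibits PERK, had 95.6 and 97.2 CPM in pEx5 knockdown, 72.7 and 76.2 in induction and 72.1 and 72.8 in control libraries. In the mEx5 line there were 98.0 and 93.2 CPM in knockdown, 64.4 and 65.2 in induction and 72.8 and 65.1 in control. The 4 knockdown libraries lay above the 8 others. Its change was 0.44 ± 0.045 on the log2 scale (limma adjusted p = 9.65e-08), with 10 of 11 junctions higher in both lines. The authors' deposited table does not show this rise, with log2 fold changes of -0.04 and 0.05 in pEx5 and mEx5 and 23.61 against 24.9 RPKM in pEx5 knockdown and control.

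Creld2, a secreted ER stress protein, had 160 and 167 CPM in pEx5 knockdown against 126 and 126 in pEx5 control, and 147 and 155 CPM in mEx5 knockdown against 121 and 117 in mEx5 control. Manf, a neurotrophic factor that binds BiP, had 277 and 276 CPM in pEx5 knockdown against 196 and 216 in pEx5 control, and 220 and 243 CPM in mEx5 knockdown against 193 and 187 in mEx5 control. Dnajb9 (ERdj4), a cochaperone that helps BiP bind IRE1, had 15.0 and 16.2 CPM in pEx5 knockdown against 11.5 and 12.5 in control, and 15.3 and 16.4 CPM in mEx5 knockdown against 11.3 and 12.2 in control. In none of the 3 did knockdown and control libraries of a line overlap, a gap whose share over all genes was not counted. The log2 rises were 0.36 ± 0.037, 0.35 ± 0.048 and 0.41 ± 0.072 for Creld2, Manf and Dnajb9 (limma adjusted p = 1.66e-07, 4.11e-06 and 9.34e-05).

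The other called folding genes rose by 0.11 to 0.25 on the log2 scale: Calr, Hsp90b1, Hyou1, Pdia4, Pdia6, Sdf2l1, Dnajb11 and Uggt1. In both lines 25 of 25 junctions of Hyou1 and 15 of 15 of Hsp90b1 were higher in knockdown. Calnexin (Canx, 0.03 ± 0.035), Pdia3 (-0.07 ± 0.041), Sec61a1 (-0.05 ± 0.033) and Wfs1 (0.11 ± 0.107) did not pass. P4hb, the founding protein disulfide isomerase, fell by 0.1 on the log2 scale (-0.095 ± 0.035, limma adjusted p = 0.0308). Dnajb11, Uggt1 and P4hb passed over both lines together and in neither line alone.

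Dnajc10 (ERdj5), a reductase that opens disulfides before degradation, was the folding gene that fell most. It had 58.0 and 56.7 CPM in pEx5 knockdown, 66.8 and 62.6 in induction and 78.3 and 81.9 in control libraries. For mEx5 the values were 60.2 and 59.1 CPM in knockdown, 74.5 and 76.1 in induction and 79.9 and 80.6 in control. The order knockdown, induction, control held in both lines with no overlap. It fell by 0.45 ± 0.043 on the log2 scale on knockdown (limma adjusted p = 3.66e-08), with 21 of 22 junctions lower in both lines. Junctions 1 and 2 from the 5′ end hardly moved (log2 ratios -0.025 and 0.034 in pEx5, -0.011 and 0.069 in mEx5). Junction 3, across the 1921-nt intron described below, had -0.518 and -0.399, and all later ones lay at -0.199 or below. The authors' deposited table gives the fall of the gene as -0.45 in pEx5 and -0.40 in mEx5. The RPKM in that same table does not show it, at 21.71 against 21.9 in pEx5 knockdown and control and 22.03 against 23.02 in mEx5.

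RefSeq promoter windows (GRCm38.p6, 250 bases before to 50 after the start) were matched for 32 of the 38 genes (not for Atf6, Derl1, Erlec1, Hyou1, Manf and Sec61a1) and searched on both strands for the ER stress response element, CCAAT followed after 9 bases by CCACG, a known site of NF-Y and ATF6. The element was in the windows of 9 of the 32 genes (28.1%), against 39 of 32851 windows of all genes (0.119%). The genes were picked for roles known to run through such elements, and the windows of all genes include theirs. These shares therefore describe the choice of genes and are no result of the expression data. Of the 9 genes with the element, Calr, Creld2, Dnajc3, Hsp90b1, Hspa5 and Pdia6 rose on knockdown, Canx and Syvn1 did not pass, and Derl3 was not tested. With or without it, 22 of the 36 tested genes rose, as did 26.5% of all genes tested. Whether the element went with the rise was not tested. The second form of the element, ATTGG followed after 1 base by CCACG, was in Herpud1 and Dnajb11, 6.25% of the 32 genes against 0.0365% of windows, and both genes rose. No gene held both forms, and TGACGTGG, an ATF6 and XBP1 site, was in 0 of the 32 and in 0.676% of all windows. Below, bases before the RefSeq start are printed on the strand of the gene with the element in capitals, for 4 genes that rose and 2 that did not pass. In Calr and Creld2 the element reads on the opposite strand.
Calr, chr8:84847063-84847105, minus strand: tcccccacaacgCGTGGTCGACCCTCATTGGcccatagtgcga
Creld2, chr15:88819508-88819550, plus strand: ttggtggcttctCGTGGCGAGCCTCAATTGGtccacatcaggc
Dnajc3, chr14:118937815-118937857, plus strand: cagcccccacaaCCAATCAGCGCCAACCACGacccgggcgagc
Herpud1, chr8:94386365-94386399, plus strand: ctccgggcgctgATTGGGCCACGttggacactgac
Canx, chr11:50325788-50325830, minus strand: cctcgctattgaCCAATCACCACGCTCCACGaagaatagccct
Syvn1, chr19:6046520-6046562, plus strand: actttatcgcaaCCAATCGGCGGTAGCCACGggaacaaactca
A match shows that the letters are there, not that a factor bound.

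Most degradation genes also rose on knockdown, and Edem1, Herpud1 and Sel1l were still above control after induction in both lines, as were Os9 in pEx5 and Derl1 in mEx5. Herpud1 had 236 and 239 CPM in pEx5 knockdown, 218 and 220 in induction and 181 and 178 in control libraries. In mEx5 it had 231 and 234 CPM in knockdown, 213 and 223 in induction and 161 and 150 in control. Induction libraries lay between the others and nearer to knockdown in both lines. The rise was 0.49 ± 0.036 on knockdown (limma adjusted p = 1.07e-09), and after induction it was 0.29 ± 0.051 above control in pEx5 and 0.49 ± 0.051 above it in mEx5 (adjusted p = 0.000326 and 1.28e-06).

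Sel1l, the adaptor of the HRD1 ubiquitin ligase, had 75.9 and 70.5 CPM in pEx5 knockdown, 78.4 and 75.4 in induction and 53.6 and 55.2 in control libraries. The mEx5 values were 71.1 and 68.3 CPM in knockdown, 64.9 and 70.2 in induction and 49.4 and 53.7 in control. Knockdown and induction overlapped, and both lay above control. Sel1l rose by 0.43 ± 0.048 on knockdown (limma adjusted p = 3.22e-07) and was 0.50 ± 0.067 and 0.39 ± 0.067 above control after induction in pEx5 and mEx5. Syvn1, which encodes the HRD1 ligase itself, did not pass (0.07 ± 0.048, adjusted p = 0.233).

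Edem1, a lectin that takes misfolded glycoproteins out of the folding cycle, had 137 and 131 CPM in pEx5 knockdown against 94.1 and 98.9 in control, and 101 and 113 CPM in mEx5 knockdown against 82.6 and 78.8 in control. It rose by 0.44 ± 0.048 (limma adjusted p = 2.61e-07) and was 0.28 ± 0.067 above control in each induced line. Its paralog Edem3 fell, with 32.7 and 31.0 CPM in pEx5 knockdown against 35.9 and 36.4 in control and 41.6 and 36.3 CPM in mEx5 knockdown against 43.5 and 45.2 in control. Edem3 fell by 0.19 ± 0.053 over both lines (adjusted p = 0.0064) and passed in neither line alone. Edem2 rose by 0.16 ± 0.051 over both lines and passed alone in pEx5 only.

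Derl1, a channel protein of retrotranslocation, had 22.5 and 22.6 CPM in pEx5 knockdown against 18.0 and 18.6 in control, and 20.7 and 20.7 CPM in mEx5 knockdown against 16.3 and 16.7 in control. Os9, a lectin that hands glycoproteins to SEL1L, had 205 and 205 CPM in pEx5 knockdown against 172 and 176 in control, and 150 and 146 CPM in mEx5 knockdown against 134 and 130 in control. Neither gene's libraries overlapped between knockdown and control of a line, again with no share over all genes. Derl1 was read from 1 junction only, as was Dnajb9. Derl1 rose by 0.31 ± 0.064 and Os9 by 0.20 ± 0.037 on the log2 scale (limma adjusted p = 0.000369 and 0.000129). In the authors' deposited table neither was called in both lines. Derl2 (-0.09 ± 0.05) and the OS9-related lectin Erlec1 (0.01 ± 0.043) did not pass. The authors' deposited table calls Derl2 lower on knockdown, with log2 fold changes of -0.197 in pEx5 and -0.294 in mEx5 (FDR 0.00293 and 6.28e-06).

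Induction against knockdown compared the same siRNA with and without doxycycline, and the induced cells held more Puf60 RNA than control cells (616 against 305 CPM in pEx5 and 591 against 299 CPM in mEx5). In pEx5, 4 of the 36 genes rose and 8 fell (12.7% of all genes were called higher and 9.27% lower), and in mEx5 4 rose and 14 fell (13.3% and 12.5%). Of the 20 folding and translocation genes, 6 fell and 2 rose in pEx5 and 12 fell and 1 rose in mEx5. Calr, Creld2, Dnajc3, Hspa5, Hyou1 and Manf fell in both lines. Of the 10 degradation genes, Edem3 rose (log2 change 0.215 ± 0.075) and Edem1 fell (-0.198 ± 0.067) in pEx5. In mEx5, Derl2 (0.195 ± 0.07) and Erlec1 (0.175 ± 0.061) rose and Syvn1 fell (-0.199 ± 0.068). The pEx5 counts hung on single libraries: 1 gene rose without pEx5 knockdown A or B, pEx5 induction A or B, or mEx5 control A or B, and 5, 3 and 4 fell without pEx5 knockdown A, pEx5 knockdown B and pEx5 induction A. In mEx5, 2 rose without pEx5 knockdown A or B, mEx5 knockdown A or mEx5 induction B. The authors' deposited table called 2 higher and 7 lower in pEx5 (10.7% and 8.64% of its genes) and 4 higher and 14 lower in mEx5 (10.7% and 9.26%).

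Induction against control compared cells that differed in siRNA, cDNA induction and drug, so these cannot be told apart in it. In pEx5, 10 genes were higher and 2 lower than in control (15.1% of all genes were called higher and 14.1% lower), and in mEx5 6 were higher and 2 lower (10.3% and 11.1%). Atf6, Ern1, Herpud1, Sel1l and Edem1 were higher in both lines, and Creb3l2 was lower in both. In pEx5 the other higher genes were Dnajb9, Manf, Os9, Pdia5 and Uggt1. In mEx5 the remaining higher gene was Derl1 (0.45 ± 0.09, adjusted p = 0.00144), so 4 of 10 degradation genes and 0 of 20 folding and translocation genes were higher there by limma. The same control libraries enter knockdown against control and induction against control, which makes their values dependent. The same knockdown libraries enter knockdown against control and induction against knockdown with opposite signs. A rise in the first and a fall in the second are thus dependent too.

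Pdia5, a protein disulfide isomerase, was the gene whose induction effect differed between the lines. It had 81.2 and 81.9 CPM in pEx5 knockdown, 89.0 and 89.3 in induction and 55.2 and 53.4 in control libraries. The mEx5 line gave 70.9 and 74.5 CPM in knockdown, 43.1 and 40.8 in induction and 50.1 and 50.1 in control. Knockdown raised it in both lines, and with the exon 5 cDNA it stayed 0.72 ± 0.061 above control (adjusted p = 7.46e-08), while with the cDNA lacking exon 5 it was -0.26 ± 0.061 from control (adjusted p = 0.005), which is lower. The log2 change on induction was 0.13 ± 0.061 in pEx5 (adjusted p = 0.14) and -0.79 ± 0.061 in mEx5 (adjusted p = 1.87e-08). The difference between the lines was 0.92 ± 0.086 (limma adjusted p = 5.77e-06), in a comparison where 0.473% of all genes were called higher and 0.28% lower; 1 of the 36 genes was called. The authors' deposited table gives 21.35 RPKM in pEx5 induction against 19.49 in pEx5 knockdown, and 9.81 RPKM in mEx5 induction against 16.89 in mEx5 knockdown.

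Of 1004 splicing events tested in 36 genes, 1 rose and 4 fell on knockdown (limma adjusted p under 0.05 and at least 10 points; 0.301% of all events were called higher and 0.911% lower). Of the 1004 events, 38 had a mean inclusion of 5 to 95%, and the rest lay nearer to 0 or 100%. On induction 4 rose and 0 fell by limma, 0 also in the weighted test (0.408% and 0.0941%), and 181 had an unadjusted p under 0.05. The 4 exons that rose on induction were those that fell on knockdown, 3 in Mbtps1 and 1 in Uggt1, in comparisons that share the knockdown libraries. The lines differed in 0 events on induction by limma (0.00045% of all events were called higher and 0.0% lower) and in 0 by the weighted test (0.0703% and 0.202%), with 52 at an unadjusted p under 0.05. Simulated reads were tested for knockdown over both lines, with fewer changed events than were called here. The changed events were drawn from those of middle inclusion, unlike the 4 exons, whose inclusion was high in control. The recovery below therefore does not describe events nearer to 0 or 100%. There limma recovered 0 of 50 changes at each of 10, 15 and 20 points and 8 of 50 at 30 points. The weighted test recovered 10, 22, 33 and 45 of 50. A count of 0 thus does not show that no event differed.

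Uggt1 encodes the glucosyltransferase that senses misfolded glycoproteins and sends them back to calnexin. Its 24-nt microexon was included in 65.8% and 65.2% of reads in pEx5 knockdown libraries, 97.3% and 97.3% in induction and 98.4% and 98.0% in control. In mEx5 the values were 66.9% and 64.2% in knockdown, 95.9% and 94.9% in induction and 98.8% and 98.7% in control. The 4 knockdown libraries stood close together and far below all others. The change was -32.9 points on knockdown and 30.8 points on induction (limma adjusted p = 0.000124 and 0.0014). The exon is exon 21 of 41 of the annotated transcript (GRCm38 chr1:36176776-36176799, minus strand), and its loss keeps the frame, leaving 1543 of 1551 codons. It is shown in capitals between 20 bases of its neighbours.
Uggt1 exon 21: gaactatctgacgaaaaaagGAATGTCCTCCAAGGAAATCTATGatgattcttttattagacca
The gene itself rose by 0.11 ± 0.035 on the log2 scale on knockdown over both lines (limma adjusted p = 0.0117) and passed in neither line alone.

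**Figure D5:**
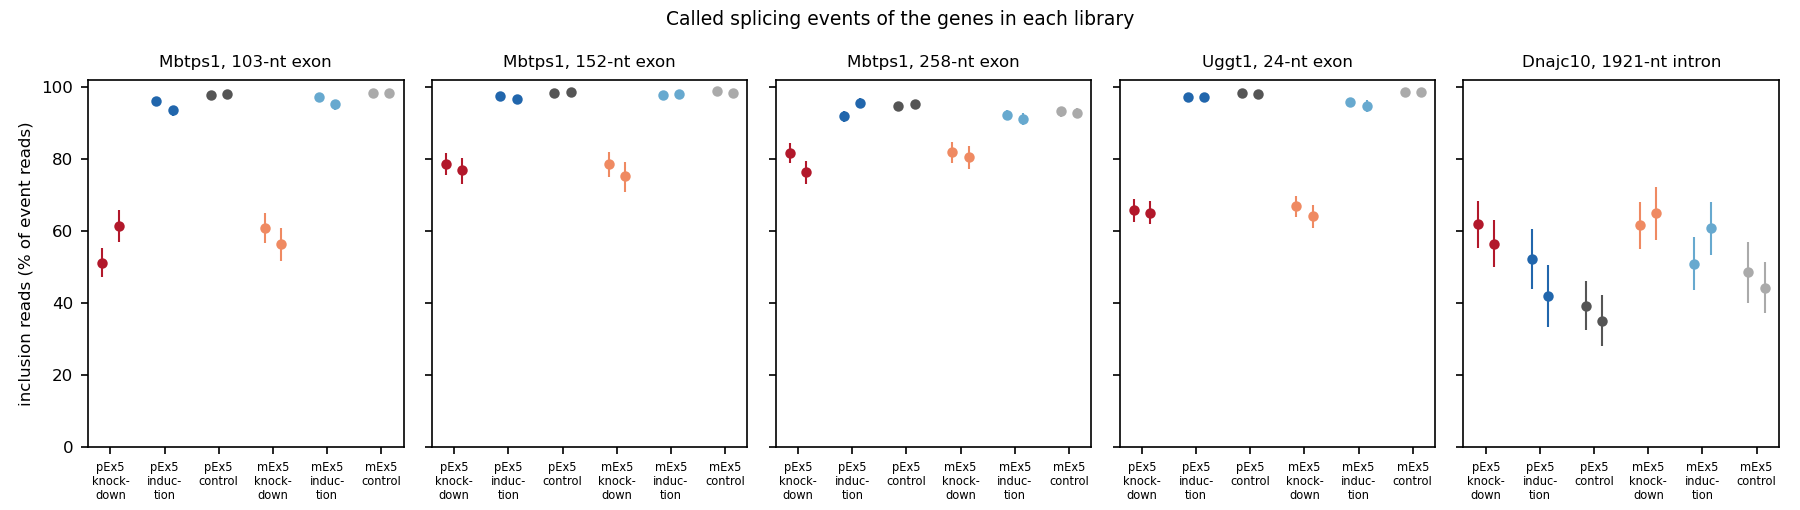
Inclusion reads as a percentage of event reads in each library (points) with the binomial 95% interval (bars, Clopper-Pearson) for the 5 events called on knockdown, vertical axes from 0. The 3 Mbtps1 exons and the Uggt1 exon are low in the 4 knockdown libraries alone, and the Dnajc10 intron is lowest in control.

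A 1921-nt intron of Dnajc10 was the event that rose. It was scored as retained in 61.8% and 56.7% of reads in pEx5 knockdown, 52.5% and 41.7% in induction and 39.2% and 35.1% in control libraries. In mEx5 the values were 61.8% and 65.1% in knockdown, 51.0% and 61.1% in induction and 48.5% and 44.2% in control. Knockdown and control did not overlap in either line, with 136 to 235 reads behind each value. The rise was 19.6 points (limma adjusted p = 0.0379), and the call was lost without any 1 of the 8 knockdown and control libraries, with changes of 18.3 to 20.9 points. Reads in this intron do not count in the junction total of Dnajc10, which was lower in the same libraries. In every library junctions 1 and 2 of the gene, before this intron, lay at 6.96 CPM or above. Junction 3 and all later ones lay at 4.93 CPM or below, also in control. Whether the intron reads came from full transcripts that kept the intron was not tested.

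Other events were smaller or rested on fewer reads. A weighted limma test, over events with a mean inclusion of 5 to 95%, tested 38 events of these genes and called 3 higher and 4 lower on knockdown (5.21% and 12.3% of all events in that test), and 4 higher and 0 lower on induction (8.88% and 2.59%). The 2 added rises were alternative 5′ sites in Sel1l (11.7 points, weighted adjusted p = 0.00282) and Pdia5 (10.9 points, weighted adjusted p = 0.0269, with as few as 18 reads in a library). An 82-nt intron of Hspa5 was retained in 23.7% and 23.6% of reads in pEx5 knockdown, 26.6% and 28.0% in induction and 17.5% and 16.9% in control libraries. Its mEx5 values were 29.0% and 30.5% in knockdown, 28.5% and 30.6% in induction and 20.3% and 20.4% in control. Knockdown and induction both lay above control, by 7.93 points on knockdown, under the minimum of 10 points (limma adjusted p = 0.0778).

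The wider pathway, from lists of genes outside the 38, moved unevenly. The lists are of known roles and, like the 38 genes, were chosen with earlier results of these data known. Of 15 tested genes listed for the PERK, ATF4 and CHOP branch, 10 rose and 2 fell on knockdown (26.5% and 25.3% of all genes). Their median log2 change was 0.37. That list also names Eif2ak1, Eif2ak2 and Eif2ak4, kinases other than PERK, so it does not single out the PERK branch. Trib3, a pseudokinase induced by CHOP, rose by 1.00 ± 0.055, the stress factor Nupr1 by 0.95 ± 0.061, CHOP itself (Ddit3) by 0.78 ± 0.051 and Atf3 by 0.65 ± 0.1. After induction 9 of the 15 were above control and 1 below in pEx5 (15.1% and 14.1% of all genes), and 10 above and 0 below in mEx5 (10.3% and 11.1%) by limma, with medians of 0.24 and 0.71. Of 20 other degradation genes, 9 rose and 2 fell on knockdown, among them the lipid droplet and ERAD factor Aup1 (0.52 ± 0.045) and the deglycosylating enzyme Ngly1 (-0.37 ± 0.076). Dnajb14 and the ubiquitin-conjugating enzyme Ube2g2 rose by 0.34 ± 0.097 and 0.22 ± 0.046.

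Lists closer to basic secretion were called at shares near those of all genes tested on knockdown (26.5% higher and 25.3% lower). Of 31 other ER folding genes, 9 rose and 8 fell, with a median log2 change of 0.01, as over all genes tested. The oxidase Ero1l (0.63 ± 0.04) and the prolyl isomerase Fkbp11 (0.64 ± 0.061) rose, and the calcium-binding reticulocalbin Rcn2 (-0.88 ± 0.051) and Fkbp7 (-0.42 ± 0.1) fell. Of 21 genes of ER entry, 5 rose and 7 fell, with Tram2 at 0.76 ± 0.163 and the signal recognition particle genes Srp72 at -0.51 ± 0.035 and Srp19 at -0.33 ± 0.054. Ssr4, a subunit of the translocon-associated complex, fell by 0.24 ± 0.052. Among 6 other transducers, Creb3l1 rose (0.60 ± 0.156) and Mbtps2, which encodes the site-2 protease that cuts after the site-1 protease, fell by 0.41 ± 0.06 (limma adjusted p = 1.02e-05), as did Traf2 by 0.19 ± 0.046.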

How the data were processed

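Exon-exon junction reads were taken from the per-library read text of the intron rows of the splicing table deposited by the authors (a vast-tools table, per the file headers) and summed per gene. limma 3.58.1 in R 4.3.3 was run on log2 CPM (median-of-ratios scaling, prior count 2, mean of at least 20 reads, 10363 genes, 1 coefficient per group), with Benjamini-Hochberg adjustment. The reads were deposited as text inside another table, not as a count table, so no count model was run. Events used limma on the logit of inclusion reads (pseudocount 0.5, at least 10 reads in all 12 libraries, 222055 events). The deposited percent values (percent spliced in) are the authors', and 98.89% lay within 0.02 points of the percentage from the reads. The authors' RPKM values, log2 fold changes, p-values and FDR were deposited with 1 value per group or comparison; the submitters' processing notes name Salmon 0.14.1, edgeR and mm10. The authors' other deposited event score was not used. Junction totals of a gene can move with its splicing. Tests were run on simulated data first. The 38 genes, the lists and the named-gene rule (every sensor, and per role up to 6 of the largest called changes) were chosen with earlier results of these data known, and Hspa5 and the genes named only to complete a count were added after their values were seen. Alternatives changed scaling, prior, filter, test, reads, replicate block and single libraries.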

Additional observations from a re-analysis of the deposited data

Results flagged for a closer look

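Pdia5 was marked because its response to induction differed between the lines: the log2 change on induction was 0.13 in pEx5 and -0.79 in mEx5, a difference of 0.923 by the limma test of the difference (SE 0.086, adjusted p = 5.77e-06). The difference stayed between 0.884 and 0.965 with each of the 12 libraries left out in turn. Each form of the cDNA was in a line of its own, so the form of the cDNA and other differences between the lines cannot be told apart.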

How the results depend on the processing

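With total-read or TMM scaling, a prior count of 0.5, filters of a mean of 1 or 100 reads and voom weights, each of the 18 counts of genes stayed within 1.5 times its value. In the authors' deposited table, 14 genes were higher on knockdown in both lines (called in each line), 5 lower in pEx5, 5 lower in mEx5, and 2 higher on induction in pEx5. There Dnajc3 (0.003), Derl1 (0.152) and Os9 (0.174) lost their call and Creb3l2 (-0.166) gained one. Hsp90b1, Pdia6, Dnajb11, Uggt1, Edem2 and P4hb were also not called in both lines of that table, and Derl2 was called lower in both. Correlations of A minus B differences between groups ran from -0.129 to 0.162, highest for mEx5 knockdown with mEx5 control. They do not settle whether the replicate letters mark pairs. A replicate block left 2 genes higher on induction in pEx5 and lost the Dnajc10 intron (limma adjusted p = 0.0622). Events called higher on knockdown numbered 3 in the weighted test and 3 with a pseudocount of 1. With single libraries left out, the counts ranged from 1 to 4 higher and 3 to 9 lower on induction in pEx5, 2 to 4 higher in mEx5, and 0 to 2 events higher on knockdown (0 without any knockdown or control library, 2 without pEx5 induction A or B). Sign changes with a library left out were all in values that were not called: Creb3l2 on knockdown ranged from -0.099 to 0.0 on the log2 scale (0.0 without mEx5 knockdown B), the 771-nt and 722-nt introns of Xbp1 from -0.941 to 0.368 and from -1.33 to 1.1 points, and its 43-nt exon from -0.472 to 0.253 points. The cause was not tested. Duplicates limit what small differences can show, and the Pdia5 splice site had 18 to 69 reads per library.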
